A study of Mus musculus with 11 samples.

Results

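The 34 genes described here encode collagens, proteoglycans, glycoproteins, matrix enzymes and fibroblast receptors. They were chosen by symbol, as the rows of the all-library expression table whose symbol stands in a fixed list of fibroblast and extracellular matrix genes, and all 34 of the listed symbols were found among the 24250 genes of that table. Expression was measured by RNA sequencing of mouse intestine, as the sample labels name it, in 3 groups. They were ND, read as normal diet (n = 3 libraries), HFD, read as high-fat diet (n = 4), and FSP (n = 4). FSP mice were given the herbal mixture 5 Substances Powder with Poria (the labels spell the number out). The diet of the FSP mice is not stated, though the title of the series calls the mice obese, and strain, age, sex, dose, duration and the stretch of gut are not given. Nothing says whether each library is a separate animal, so p-values here reflect only how far these samples spread, which may include technical variation. Values are FPKM, that is fragments per gene length and per library total, so levels can be set side by side between genes.

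Fibroblasts of the gut wall lie under the epithelium, around the crypts and between the muscle layers, and secrete most of the interstitial matrix. Fibrillar collagens form the tensile fibres, small leucine-rich proteoglycans bind these fibres and set their spacing, and basement membrane collagens form the sheets on which epithelium, endothelium and muscle rest. Matricellular proteins modulate how cells attach to this scaffold, while metalloproteinases and their tissue inhibitors govern its turnover. Smooth muscle, endothelial, mesothelial and fat cells express several of the same genes.

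Library sizes, recovered from the steps between low values of single-exon genes, ran from 3.17e+07 to 3.81e+07 fragments, a 1.201-fold difference. In the smallest library, 1 FPKM of a gene 1 kb long stands for about 32 fragments. The smallest value of any of the 34 genes (Mfap5, 0.174 FPKM in FSP 3) stands for about 24. Mfap4, a shorter gene with 0.180 FPKM in FSP 2, had the fewest fragments, about 13. All 34 were above 0 in all 11 libraries, and together they made up 0.0281% to 0.0977% of a library's summed FPKM. Of the 12 epithelial markers, none was at 0 in any library, and their mean log2(FPKM + 1) ran from 8.40 to 9.22. Mitochondrially encoded genes held 40.4% of summed FPKM in HFD 1 and 12.9% to 26.3% in the other libraries. In bulk tissue, fewer cells of a type and less RNA per cell cannot be told apart.

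One matrix gene, Tgfbi, passed the test between groups, and no other did. Tgfbi encodes transforming growth factor beta induced protein, a secreted matricellular protein that binds collagens and integrins. Its level fell in HFD against ND and was higher in FSP than in HFD. Of the 34 genes, 25 had a mean of at least 1 FPKM over all libraries and entered the test, which was limma on log2(FPKM + 1) over 10296 genes with Benjamini-Hochberg adjustment and a threshold of 0.05.

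Tgfbi stood at 142, 138 and 106 FPKM in ND 1 to 3, the highest mean of the 34 genes in that group. Its HFD 1 to 4 levels were 31.2, 37.7, 43.8 and 46.7 FPKM, and those of FSP 1 to 4 were 86.1, 96.3, 71.7 and 98.5 FPKM. The 3 groups did not overlap: each HFD library lay below each FSP library, and each FSP library below each ND library. Group means were 129 ± 19.96 FPKM in ND (SD, n = 3), 39.8 ± 6.90 in HFD (SD, n = 4) and 88.2 ± 12.2 in FSP (SD, n = 4). On the log2(FPKM + 1) scale, Tgfbi fell by 1.67 in HFD against ND (SE 0.17, 95% interval −2.04 to −1.30, limma adjusted p = 0.000362). The difference of FSP from HFD was 1.13 (SE 0.16, 95% interval 0.79 to 1.48, limma adjusted p = 0.00943). The difference of FSP from ND was −0.54 (SE 0.17, 95% interval −0.91 to −0.17) and did not pass (limma adjusted p = 0.165). The FSP-against-HFD call was lost without FSP 1 and FSP 4 together (1.06, limma adjusted p = 0.0966). With that pair left out, 2 of all 10178 tested genes passed as higher and 0 as lower, against 291 and 94 with all libraries. These comparisons share libraries, so the HFD samples enter both of the first pair and the values are not independent of each other.

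**Figure D1:**
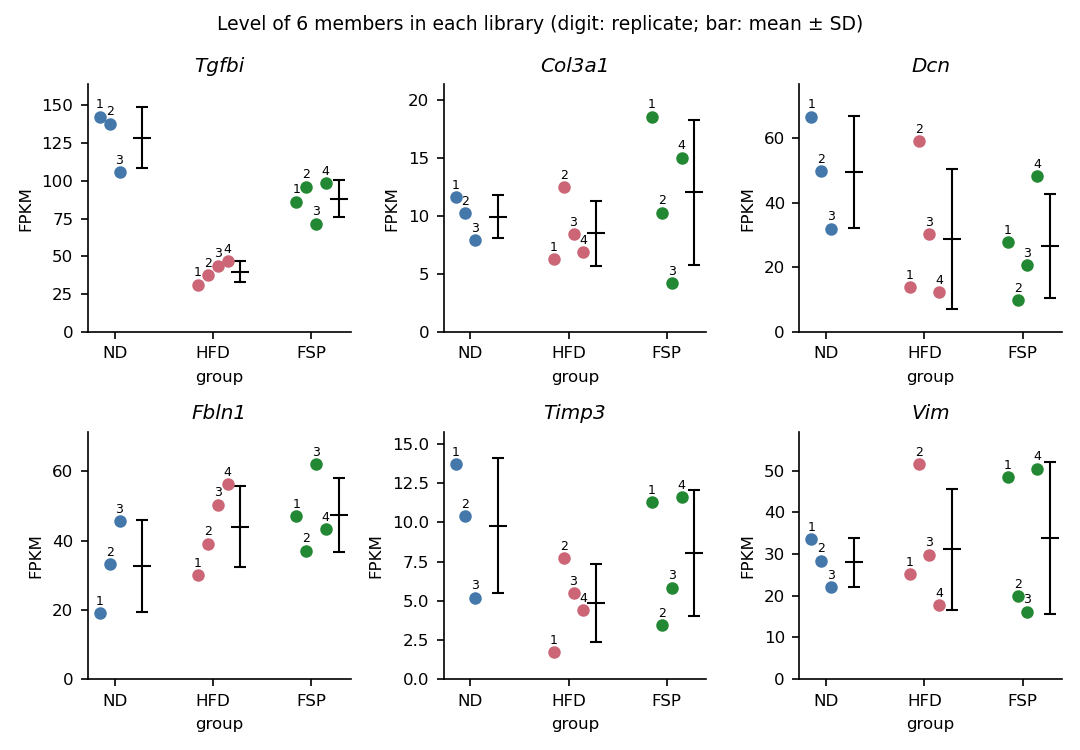
Level in FPKM (vertical axis, from 0) of 6 matrix genes in each library of ND (blue), HFD (red) and FSP (green), with digits for the replicate and bars for the mean ± SD (n = 3, 4 and 4). Tgfbi lies between 31.2 and 46.7 FPKM in HFD, apart from the other groups, while the groups overlap in the other 5 panels.

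In HFD against ND, limma called 1 of the 25 tested matrix genes lower (Tgfbi) and 0 higher, where 15.1% of all tested genes were lower and 5.36% higher (20.5% in either direction). Every HFD library lay below every ND library for 1 of the 25, against 33.6% of all tested genes, and above for 0, against 9.28%. At an unadjusted p under 0.05 the count was also 1, against 37.6% of all tested genes. In FSP against HFD, limma called 1 higher (Tgfbi) and 0 lower, where 2.83% of all tested genes were higher and 0.913% lower (3.74% in either direction), and 1 had an unadjusted p under 0.05, against 18.7%. Every FSP library lay above every HFD library for 1 of the 25, against 8.52%, and below for 0, against 2.3%. In FSP against ND, limma called 0 of the 25 in either direction, where 1.03% of all tested genes passed (0.699% higher and 0.33% lower), and 1 (Tgfbi) had an unadjusted p under 0.05, against 14.4%. Every FSP library lay below every ND library for Tgfbi, as for 10.9% of all tested genes, and above for 0 of the 25, against 5.57%.

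The median log2 change of the 25 genes in HFD against ND was −0.37, beside −0.21 for all tested genes. Below 0 lay 21 of the 25, and 4 lay above 0, where 28.5% of all tested genes did. With median-ratio scaling between libraries both medians moved toward 0, to −0.17 and −0.01, and 4 of the 25 changed sign. Without ND 1 or HFD 1 the median of the set was −0.16 or −0.20. In FSP against HFD the median was 0.34, beside 0.12 for all, and 24 of the 25 lay above 0, where 71.2% of all tested genes did. Without FSP 1 and FSP 4, the FSP libraries highest for adipocyte markers, the median was −0.28, beside 0.03 for all. Of the 23 genes still tested, 14 changed sign. Both libraries lay above FSP 2 and FSP 3 for 31 of the 34 genes. A lower median was thus built into leaving out this pair, which is no test of the direction. With 1 library left out the median stayed above 0, from 0.13 without FSP 1 and 0.16 without FSP 4 to 0.57 without FSP 2. In FSP against ND the median was 0.10, beside −0.07 for all, with 15 of the 25 above 0, where 37.9% of all tested genes were. The median of the set was −0.60 without FSP 1 and FSP 4, where a fall was likewise built in. It also lay below 0 without ND 3 (−0.10), FSP 1 (−0.14) or FSP 4 (−0.09).

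**Figure D2:**
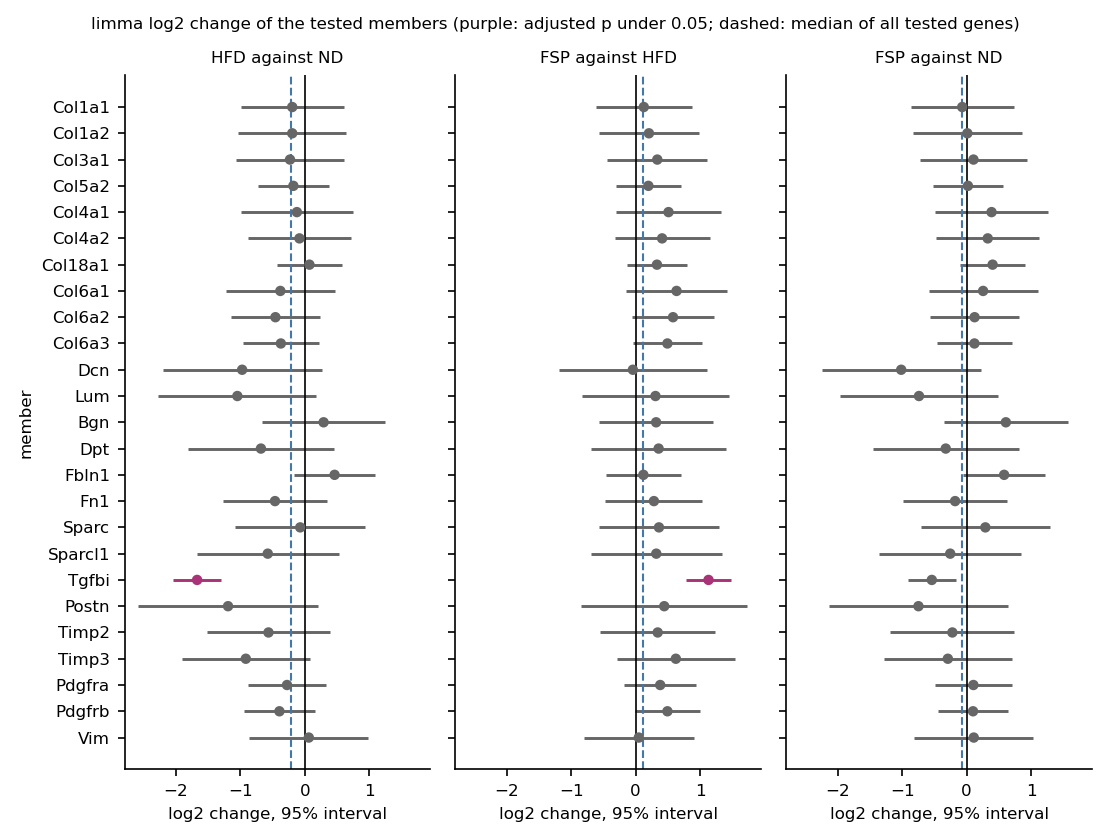
Log2 change of the 25 tested matrix genes in the 3 comparisons (horizontal axis, log2(FPKM + 1) scale), with points for the limma estimate, lines for its 95% interval and a dashed line at the median of all tested genes. Tgfbi, in purple, has the shortest interval and is the sole gene past the threshold; the intervals of the 24 other genes include 0 in all 3 comparisons.

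The spread between libraries of a group was wide for these genes. The median within-group SD on the log2 scale was 0.586 for the 25, against 0.229 for all tested genes. Accordingly the median standard error of the HFD-against-ND change was 0.384, against 0.172. For 24 of the 25 (96%) the widest range inside a group exceeded the range of the 3 group means, against 83.9% of all tested genes. Tgfbi was the exception and had the smallest within-group SD of the 25, at 0.232. Postn, which encodes the matricellular protein periostin, had the largest, at 0.988.

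Other values moved with Tgfbi across the groups. A list of 15 genes of the distal small intestine had a mean log2(FPKM + 1) of 7.24 to 8.26 in ND, 4.72 to 5.42 in HFD and 6.13 to 7.67 in FSP, and 12 of its 15 genes were lower in HFD than in ND (15.1% of all tested genes) and 8 of 15 higher in FSP than in HFD (2.83% of all). A list of 13 proximal genes ran the other way, from 3.93 to 4.95 in ND, 5.63 to 6.38 in HFD and 4.90 to 5.66 in FSP. Of its 11 tested genes, 7 were higher and 2 lower in HFD than in ND (5.36% and 15.1% of all tested genes). In FSP against HFD, 1 was higher and 1 lower (2.83% and 0.913% of all). Slc11a2, an iron transporter of that list, went against its mean, with 6.78, 3.82 and 7.15 FPKM in ND, HFD and FSP (log2 change 0.78 in FSP against HFD, limma adjusted p = 0.0470). Of 12 epithelial markers, 2 were lower in HFD than in ND, a share close to the 15.1% of all tested genes. The same 2 were higher in FSP than in HFD, where 2.83% of all were. These were Cldn7 and Epcam, a tight junction protein and an adhesion molecule, which differed in the same directions as Tgfbi. Their changes were −0.72 and −0.58 in HFD against ND and 0.72 and 0.71 in FSP against HFD, each past the threshold. The other 10 markers did not pass in either comparison. The part of these lists and genes in the change of Tgfbi was not tested.

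Tgfbi lies on chromosome 13 from 56609586 to 56639359 (mm10). Its promoter is shown because it was the single gene of the set that passed the threshold. Beside it are those of Col3a1, the most abundant fibrillar collagen, and Fbln1, whose order of libraries differed from that of the others. The sequences are from RefSeq on GRCm38.p6, run 5′ to 3′ on the plus strand up to the start of the gene, and leave out bases that overlap an annotated exon. Capitals mark matches to 5 motifs searched on both strands. They were the core promoter element TATAAA, the box CCAAT bound by factor NF-Y, the Sp-family box GGGCGG, the site TGANTCA of the AP-1 factors and the letters CAGACA that SMAD proteins bind.
Tgfbi, chr13:56609336-56609522, ending 63 bases before the start: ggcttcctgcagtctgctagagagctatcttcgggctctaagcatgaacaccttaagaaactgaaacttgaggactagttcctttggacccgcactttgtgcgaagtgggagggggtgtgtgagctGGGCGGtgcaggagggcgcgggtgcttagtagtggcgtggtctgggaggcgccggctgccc
Col3a1, chr1:45311288-45311537: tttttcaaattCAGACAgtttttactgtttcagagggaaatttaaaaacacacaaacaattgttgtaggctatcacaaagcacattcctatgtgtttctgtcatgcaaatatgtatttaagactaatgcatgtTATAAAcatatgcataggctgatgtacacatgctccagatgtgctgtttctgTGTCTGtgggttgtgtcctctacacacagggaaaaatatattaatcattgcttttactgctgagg
Fbln1, chr15:85205699-85205948: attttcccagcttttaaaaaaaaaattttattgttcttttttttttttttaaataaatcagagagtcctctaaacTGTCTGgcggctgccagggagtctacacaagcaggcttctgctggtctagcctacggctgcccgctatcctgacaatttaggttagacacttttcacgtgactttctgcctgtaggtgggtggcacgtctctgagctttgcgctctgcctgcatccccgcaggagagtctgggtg

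The Tgfbi stretch held GGGCGG at bases 127 to 132 and no other match. The Col3a1 promoter held the letters TATAAA at bases 134 to 139 of the 250 that end at the gene start. It also held CAGACA at bases 12 to 17 and, reversed, at 186 to 191. The Fbln1 promoter held the reversed CAGACA at bases 76 to 81. RefSeq promoters were found for 22 of the 34 genes, in 26 windows. Over the 250 bases before the start, GGGCGG stood in 13 of the 26 windows and in 32.7% of all 32851 windows, CAGACA in 7 and 17.1%, CCAAT in 6 and 33.8%, TATAAA in 3 and 12.4%, and TGANTCA in 1 and 6.75%. A match is a description of the letters and not a binding site.

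The 34 genes spanned a wide range of levels. After Tgfbi, with a mean of 81.6 FPKM over the 11 libraries, the order ran through Fbln1 (42.1 FPKM), Dcn (33.6), Vim (31.2), Sparcl1 (26.1), Sparc (21.8), Col3a1 (10.2) and Bgn (10.1). The ranges over libraries of neighbours in this order overlapped. At the low end, 9 genes had a mean under 1 FPKM and were not tested: Mmp2, Fbln2, Col15a1, Mfap4, Col14a1, Mfap5, Loxl1, Col5a1 and Fbn1, from 0.990 down to 0.566 FPKM. With no filter on low values 0 of these 9 passed in limma; their smallest adjusted p was 0.388, for Mmp2 in FSP against HFD (log2 change 0.55).

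Of the 5 fibrillar collagen genes, 4 were tested and none passed in any comparison. Col3a1, which encodes the chain of the homotrimeric type III collagen abundant in distensible organs, stood at 11.6, 10.2 and 7.92 FPKM in ND 1 to 3. It stood at 6.24, 12.5, 8.41 and 6.89 FPKM in HFD 1 to 4 and at 18.5, 10.3, 4.20 and 15.01 FPKM in FSP 1 to 4. The FSP libraries held both the highest and the lowest value of all 11, and the groups overlapped. The Col3a1 change was −0.23 in HFD against ND (SE 0.38, limma adjusted p = 0.670) and 0.34 in FSP against HFD (SE 0.35, limma adjusted p = 0.669). Col1a1 and Col1a2, the 2 chains of type I collagen, had changes of −0.19 each in HFD against ND and of 0.13 and 0.21 in FSP against HFD. Col5a2, a chain of the type V collagen that nucleates fibrils, had changes of −0.18 and 0.20. Its partner Col5a1 lay between 0.232 and 1.61 FPKM, below the filter on average. Col3a1 and Col5a2 are neighbours on chromosome 1 (45311538 to 45349706 and 45374331 to 45503282).

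The FPKM ratios between chains of a shared collagen varied to different degrees. The ratio of Col1a1 to Col1a2 ran from 0.394 to 0.521 over the 11 libraries, a 1.32-fold range, while Col1a1 itself ranged 5.33-fold. Col6a1 over Col6a2 ran from 1.84 to 2.46 (1.34-fold), and Col4a1 over Col4a2 from 1.24 to 1.81 (1.46-fold). Col6a3 over Col6a1 ran from 0.0982 to 0.184 (1.88-fold), and Col5a1 over Col5a2, both at low levels, from 0.402 to 0.894 (2.22-fold). The last 2 ranges were wider than that of Col3a1 over Col1a2, chains of different collagens (1.63-fold). The ratio of Dcn to Col3a1, genes of different fibre components, ran from 0.947 in FSP 2 to 5.73 in ND 1, a 6.06-fold range. The ratio of Bgn to Dcn, which encode the related proteoglycans biglycan and decorin, ran 8.65-fold, from 0.137 to 1.18. These ratios were chosen after values were seen and were not tested.

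**Figure D3:**
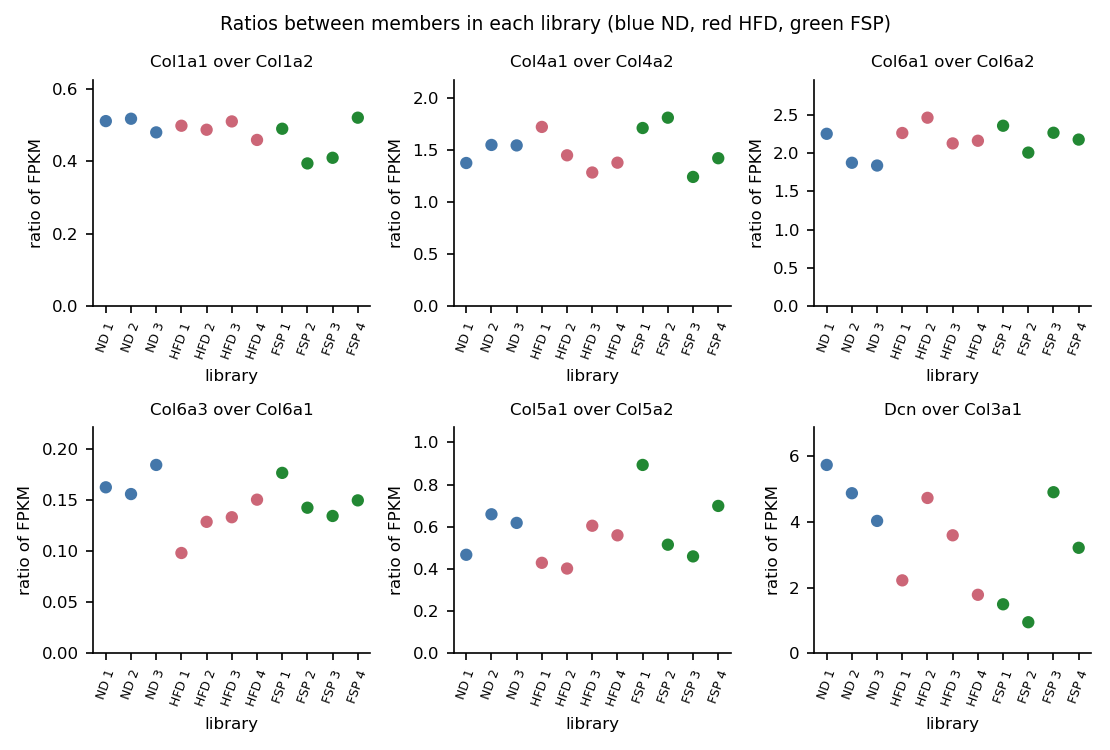
Ratio of FPKM between pairs of matrix genes (vertical axes, from 0) in each of the 11 libraries, coloured by group. The 5 pairs of chains of a shared collagen range from 1.32-fold (Col1a1 over Col1a2) to 2.22-fold (Col5a1 over Col5a2), and Dcn over Col3a1 6.06-fold, from 0.947 to 5.73.

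Of the 8 basement membrane, beaded-filament and associated collagens, 6 were tested and none passed. Col6a1, a chain of the type VI collagen that forms beaded filaments around cells, stood at 8.75, 7.43 and 3.86 FPKM in ND 1 to 3. Its HFD 1 to 4 levels were 3.48, 6.44, 5.13 and 4.04 FPKM, and those of FSP 1 to 4 were 14.7, 6.32, 3.45 and 10.7 FPKM. FSP 1 and FSP 4 lay above all other libraries and FSP 3 lowest. The Col6a1 change was −0.38 in HFD against ND (limma adjusted p = 0.478) and 0.64 in FSP against HFD (SE 0.36, limma adjusted p = 0.369). Col6a2 and Col6a3, its partner chains, had changes of 0.58 and 0.49 in FSP against HFD (limma adjusted p = 0.317 and 0.314), and −0.46 and −0.37 in HFD against ND. Col6a1 and Col6a2 are neighbours on chromosome 10 (76708792 to 76726044 and 76595756 to 76623630).

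Col4a1 and Col4a2, the chains of the main basement membrane collagen, are transcribed from a shared head-to-head promoter region on chromosome 8. Col4a1 lay at 3.32 to 5.56 FPKM in ND, 3.11 to 5.63 in HFD and 2.55 to 13.7 in FSP. The Col4a1 change was −0.12 in HFD against ND and 0.51 in FSP against HFD (limma adjusted p = 0.833 and 0.4997), and that of Col4a2 −0.08 and 0.41. Col18a1, the source of endostatin, had a change of 0.07 in HFD against ND and 0.33 in FSP against HFD. Col15a1, a related basement membrane collagen, and Col14a1, a collagen that binds fibril surfaces, had group means of 0.510 to 1.39 and 0.603 to 0.877 FPKM and were not tested.

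All 4 small leucine-rich proteoglycans and fibril-binding proteins were tested and none passed. Dcn stood at 66.5, 49.7 and 31.9 FPKM in ND 1 to 3, at 13.9, 58.9, 30.2 and 12.3 FPKM in HFD 1 to 4, and at 27.7, 9.73, 20.6 and 48.2 FPKM in FSP 1 to 4. Each group held at least 1 library within the range of the others, and HFD 2 stood near the ND libraries. The Dcn change was −0.97 in HFD against ND (SE 0.56, limma adjusted p = 0.223), −0.04 for FSP against HFD and −1.02 for FSP against ND (SE 0.56, limma adjusted p = 0.440). Lum, which encodes lumican, another proteoglycan that regulates fibril width, is the neighbour of Dcn on chromosome 10 (97565501 to 97572703 beside 97479500 to 97518163). Its change was −1.05 in HFD against ND (SE 0.56, limma adjusted p = 0.190) and 0.31 in FSP against HFD. Bgn differed in sign from Dcn and Lum, with changes of 0.29 in HFD against ND and 0.61 in FSP against ND (limma adjusted p = 0.634 and 0.543). Dpt, which encodes dermatopontin, a protein that binds decorin and fibrils, had changes of −0.68 and 0.36 in HFD against ND and FSP against HFD.

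Among the 7 glycoproteins and proteins of elastic fibres and microfibrils, Fbln1 and Fn1 were tested and neither passed. Fbln1, which encodes fibulin-1 of elastic fibres and basement membranes, stood at 19.1, 33.1 and 45.6 FPKM in ND 1 to 3. It stood at 30.01, 39.1, 50.4 and 56.4 FPKM in HFD 1 to 4 and at 47.1, 37.1, 62.1 and 43.3 FPKM in FSP 1 to 4. ND 1, the highest ND library for most of the set, was the lowest of all for Fbln1, and FSP 3 was the highest. The Fbln1 change was 0.46 in HFD against ND (SE 0.29, limma adjusted p = 0.252), 0.12 for FSP against HFD and 0.58 for FSP against ND (SE 0.29, limma adjusted p = 0.382). Fn1, which encodes fibronectin, had changes of −0.46 and 0.28 in HFD against ND and FSP against HFD. Fbln2 (fibulin-2), Fbn1 (fibrillin-1, the backbone of microfibrils), Mfap4 and Mfap5 (microfibril-associated proteins) and Loxl1 (a lysyl oxidase that crosslinks elastin) were under the filter, with single libraries from 0.174 to 2.23 FPKM.

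Of the matricellular genes other than Tgfbi, 3 were tested and none passed. Sparc, which encodes the collagen-binding protein osteonectin, had group means of 18.7 ± 3.11 FPKM in ND (SD, n = 3), 18.3 ± 5.71 in HFD (SD, n = 4) and 27.7 ± 18.2 in FSP (SD, n = 4). Sparcl1, its relative hevin, had 30.1 ± 9.24, 21.4 ± 10.3 and 27.7 ± 15.6 FPKM in the same groups. Postn had 13.1 ± 6.97, 5.46 ± 3.87 and 8.30 ± 5.75 FPKM, and ranged 12.6-fold over the 11 libraries, the widest of the 34 genes. The Postn change was −1.19 in HFD against ND (SE 0.64, limma adjusted p = 0.188), the largest after that of Tgfbi, and its 2 lowest libraries, at 1.58 FPKM each, were HFD 1 and FSP 2.

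Of the matrix protease and inhibitor genes, Timp2 and Timp3 were tested and neither passed. Timp3, an inhibitor of metalloproteinases that binds to the matrix, stood at 13.7, 10.4 and 5.20 FPKM in ND 1 to 3, at 1.73, 7.73, 5.48 and 4.41 FPKM in HFD 1 to 4, and at 11.3, 3.46, 5.83 and 11.6 FPKM in FSP 1 to 4. HFD 1 was lowest, and 2 of the 4 HFD libraries lay within the ND range. The Timp3 change was −0.92 in HFD against ND (SE 0.45, limma adjusted p = 0.162) and 0.62 in FSP against HFD (SE 0.42, limma adjusted p = 0.463). Timp2, a soluble inhibitor that also takes part in activating Mmp2, had changes of −0.56 and 0.34. Mmp2, gelatinase A, lay between 0.392 and 2.29 FPKM.

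The receptors and the cytoskeletal marker were tested and none passed. Pdgfra, the platelet-derived growth factor receptor of gut fibroblasts, had changes of −0.28 in HFD against ND and 0.38 in FSP against HFD (limma adjusted p = 0.465 and 0.456). Pdgfrb, the receptor of pericytes and other mural cells, had −0.39 and 0.49 (limma adjusted p = 0.262 and 0.277). Vim, the intermediate filament of mesenchymal cells, stood at 33.6, 28.4 and 22.0 FPKM in ND 1 to 3, at 25.3, 51.6, 29.9 and 17.7 FPKM in HFD 1 to 4, and at 48.5, 19.9, 16.2 and 50.5 FPKM in FSP 1 to 4. HFD 2, FSP 1 and FSP 4 stood above the rest, and the changes were 0.06 (HFD against ND), 0.05 (FSP against HFD) and 0.11 (FSP against ND).

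Most of the set shared an order of libraries within each group. FSP 1 and FSP 4 both lay above FSP 2 and FSP 3 for 31 of the 34 genes (23 of the 25 tested), an order held by 28.7% of all tested genes; the exceptions were Col14a1, Fbln1 and Tgfbi. HFD 2 was the highest HFD library for 29 of 34 (39% of all tested genes), and ND 3 the lowest ND library for 33 of 34 (50.6%), Fbln1 being the exception. FSP 1 or FSP 4 was the highest of all 11 libraries for 27 of 34 (28.3%). FSP 3 was the lowest of all for 13 of 34, against 5.64% of all tested genes, and HFD 1 also for 13, against 48.3%. These orders were noted after values were seen and were not tested.

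Which FSP library was lowest differed between genes. It was FSP 2 or FSP 3 for all 34, against 80.5% of all tested genes. The split between these libraries was not counted over all tested genes. FSP 3 was lowest of FSP for 23 genes, among them all 13 collagens, Pdgfra, Pdgfrb and Vim. FSP 2 was lowest for 11 genes: Dcn, Lum, Dpt, Fbln1, Fbln2, Mfap4, Loxl1, Sparcl1, Postn, Timp2 and Timp3. In FSP 2, Dcn stood at 9.73 FPKM and Col3a1 at 10.3 FPKM. In FSP 3 the order was reversed, with Dcn at 20.6 FPKM and Col3a1 at 4.20 FPKM.

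**Figure D4:**
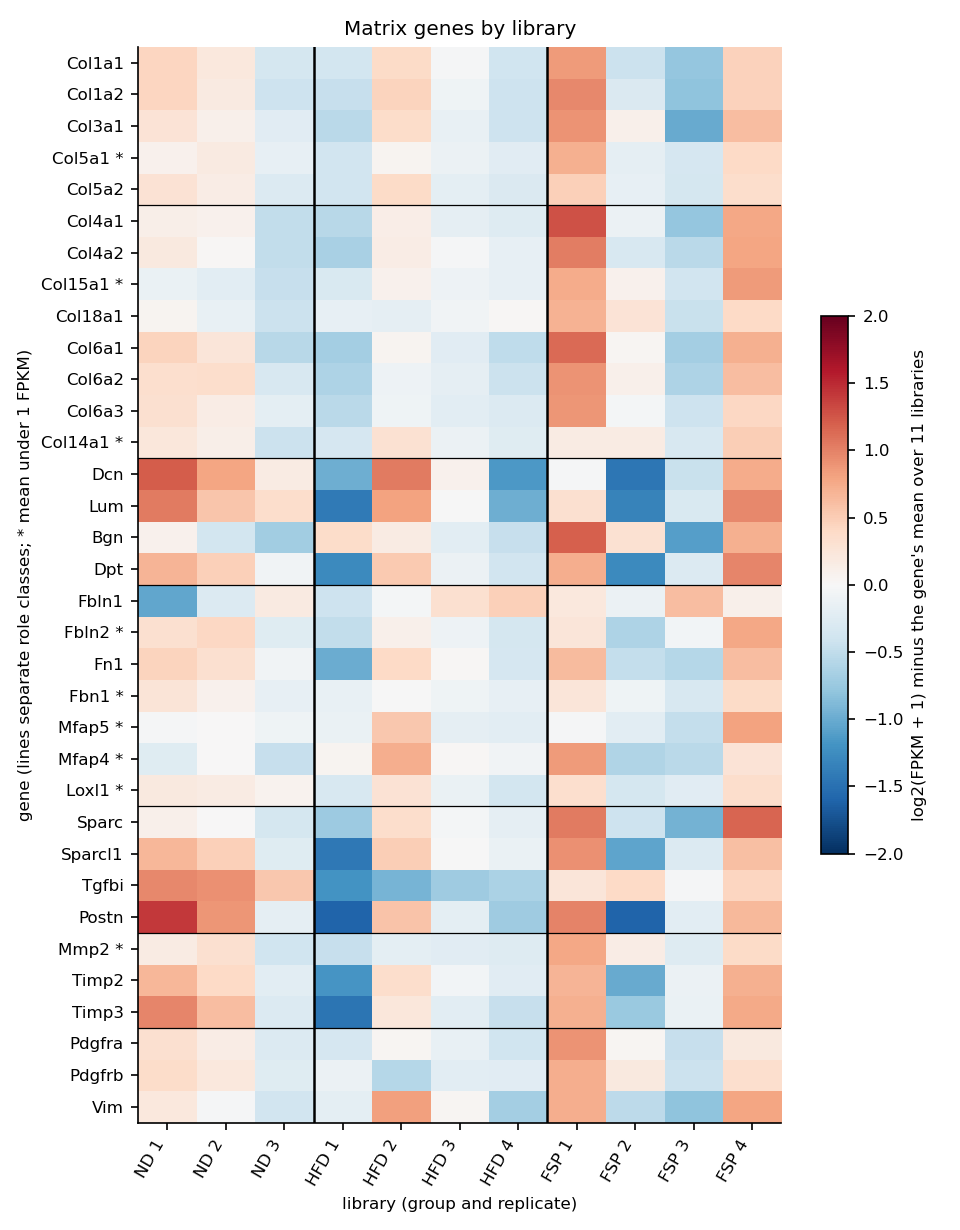
Colour gives log2(FPKM + 1) minus the mean of the gene over the 11 libraries, for the 34 genes (rows, in role classes split by lines, with an asterisk for a mean under 1 FPKM) in each library (columns, split by group). FSP 1 and FSP 4 are above FSP 2 and FSP 3 in 31 rows, and the Tgfbi row is the one that is low in all 4 HFD libraries and higher in all other libraries.

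Marker lists of other cell types also varied between libraries, some of them in the order of the matrix genes and some not. The mean log2(FPKM + 1) of the matrix genes without Tgfbi was 2.54, 2.42 and 1.96 in ND 1 to 3. Over HFD 1 to 4 it was 1.63, 2.48, 2.12 and 1.88, and over FSP 1 to 4 it was 2.91, 1.85, 1.77 and 2.81. The summed level of 14 smooth muscle markers ran from 700 to 978 FPKM in ND, from 253 (HFD 1) to 993 (HFD 2) in HFD and from 181 (FSP 2) to 1231 (FSP 1) in FSP, and 0 of the 14 passed in any limma comparison. FSP 2, where that list was lowest, was also the FSP library in which Dcn, Postn, Timp2 and Timp3 were lowest. The 7 pericyte markers were likewise lowest in HFD 1 and FSP 2, at 19.8 and 17.5 FPKM, and ran from 31.1 to 63.9 FPKM in ND. The 10 adipocyte markers summed to 101 to 114 FPKM in ND, 119 to 171 in HFD, and 231, 102, 143 and 377 in FSP 1 to 4. Of the 9 tested genes of this list, 2 (Cidec and Pparg) were higher in HFD than in ND, where 5.36% of all tested genes were. Cidec alone had means of 22.2, 68.2 and 56.4 FPKM in ND, HFD and FSP, and was also higher in FSP than in ND. Pparg was lower in FSP than in HFD, and the other 7 passed in no comparison. FSP 1 and FSP 4, the FSP libraries highest for the matrix genes, were also highest for this list.

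The endothelial, mesothelial and immune lists followed other orders in part. The 14 endothelial markers summed to 14.7 to 24.3 FPKM in ND and to 65.4, 43.4, 13.3 and 46.6 in FSP 1 to 4, with FSP 3 lowest as for the collagens. In HFD their sum was highest in HFD 1 (21.5 FPKM), the library lowest for the mean of the matrix genes, and lowest in HFD 4 (14.7). That order depended on the measure. By mean log2(FPKM + 1), HFD 2 (1.08) was highest, as for the matrix genes, with HFD 1 next (1.07). The 8 mesothelial markers summed to 13.5 to 23.4 FPKM in ND, 3.86 to 21.6 in HFD and 9.63, 5.54, 11.7 and 17.4 in FSP 1 to 4, so that FSP 3 lay above FSP 1. Of the 4 mesothelial markers tested, 1 (Upk1b) was lower in HFD than in ND (log2 change −1.42, limma adjusted p = 0.00120). Upk1b was higher in FSP than in HFD (1.02, limma adjusted p = 0.0175), and the other 3 passed in no comparison. Of all tested genes, 15.1% were lower in the first of these comparisons and 2.83% higher in the second. In FSP 1 to 4 the 10 macrophage markers summed to 149.8, 101, 14.1 and 70.1 FPKM, beside 24.3 to 31.1 in ND and 22.6 to 88.6 in HFD. The 9 T cell markers summed to 31.8, 55.7, 8.85 and 20.03 FPKM in FSP 1 to 4, 15.7 to 20.3 in ND and 15.2 to 25.4 in HFD. The 12 B and plasma cell markers summed to 654, 809, 87.1 and 348 FPKM in FSP 1 to 4, 38.6 to 64.8 in ND and 126 to 302 in HFD. Jchain alone held 408, 697, 84.3 and 335 FPKM of the FSP sums. By mean log2(FPKM + 1), this list stood at 4.15, 3.17, 0.783 and 1.36 in FSP 1 to 4. Of its 11 tested genes, only Jchain passed, higher in FSP than in ND (2.76, limma adjusted p = 0.0446), where 0.699% of all tested genes were. FSP 3 was thus the lowest FSP library for the 3 immune lists, as for 23 of the 34 matrix genes, while FSP 2 was among the higher. No marker of the smooth muscle, adipocyte, endothelial or mesothelial lists was at 0 in any library, and up to 3 of the 12 B and plasma cell markers were, in FSP 3. The part of these cell types in the order of the matrix genes was not tested.

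**Figure D5:**
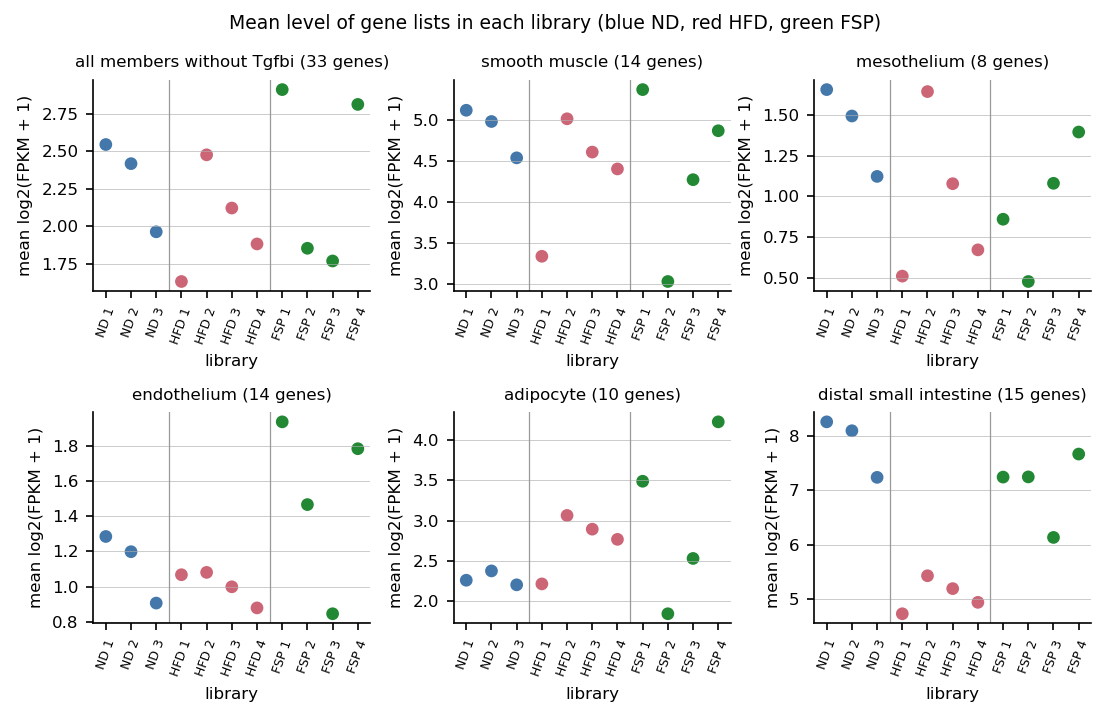
Mean log2(FPKM + 1) of 6 gene lists (vertical axes, which do not start at 0) in each of the 11 libraries, coloured by group. The matrix genes without Tgfbi are highest in FSP 1 and FSP 4, at 2.91 and 2.81, the smooth muscle list is lowest in HFD 1 and FSP 2, and the distal small intestine list is lowest in the 4 HFD libraries.

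Other genes of matrix biology were counted in 9 further lists. Over all tested genes, 5.36% were higher and 15.1% lower in HFD against ND, 2.83% higher and 0.913% lower in FSP against HFD, and 0.699% higher and 0.33% lower in FSP against ND. Laminins, nidogens and perlecan, the non-collagen parts of basement membranes, had 10 of 15 genes tested, of which 2 were higher in HFD than in ND and the same 2 higher in FSP than in ND, and none differed between FSP and HFD. They were Lama3 and Lamb3, chains of the laminin that anchors epithelium. Lama3 stood at 2.04 to 2.71 FPKM in ND, 6.05 to 7.23 in HFD and 7.95 to 13.2 in FSP, with changes of 1.22 in HFD against ND and 1.77 in FSP against ND (limma adjusted p = 0.000903 and 0.000412). Lamb3 changed by 1.54 and 1.56 (limma adjusted p = 0.00440 and 0.0314), and the second of these was lost in 11 of 22 alternatives, among them those without any single ND or FSP library or without HFD 3.

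Of 24 genes for collagen processing and crosslinking, 11 were tested. In HFD against ND, 2 were higher, Bmp1 (a procollagen C-proteinase) by 1.01 and P4hb (protein disulfide isomerase, a subunit of prolyl hydroxylase) by 0.80, with limma adjusted p of 0.00599 and 0.0263. None passed in the other comparisons. The P4hb call was lost in 6 of 22 alternatives, among them without ND 1, ND 2, HFD 3 or HFD 4. Of 26 other proteases and inhibitors, 7 were tested and Mmp15, a membrane-type metalloproteinase, was higher in HFD than in ND by 1.03 (limma adjusted p = 0.00761). The lists of 18 other collagens (1 tested, Col6a4) and of 30 other glycoproteins and proteoglycans (15 tested, with Igfbp7 and Smoc2 the most abundant) had none past the threshold in any comparison.

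Of 20 genes of transforming growth factor beta signalling, 14 were tested. In HFD against ND 2 of the 14 were lower, a share close to that of all tested genes (15.1%). Smad4, the shared mediator of the pathway, fell by 0.82 and Smad2, a receptor-activated mediator, by 0.54 (limma adjusted p = 0.00806 and 0.0311). The Smad2 call was lost in 8 of 21 alternatives, among them without ND 1, ND 2, HFD 1, HFD 2 or HFD 3. None of the 14 passed in the other comparisons. Of 4 ligands of the platelet-derived growth factor receptors, 2 were tested. Pdgfc stood at 7.61, 6.29 and 4.62 FPKM in ND 1 to 3, at 0.675, 1.45, 1.17 and 0.517 FPKM in HFD 1 to 4, and at 1.88, 2.71, 1.94 and 2.94 FPKM in FSP 1 to 4, with no overlap between groups. Pdgfc fell by 1.88 in HFD against ND (limma adjusted p = 0.000605), was higher by 0.80 in FSP than in HFD (limma adjusted p = 0.0435) and fell by 1.08 in FSP against ND (limma adjusted p = 0.0344). The FSP-against-HFD call was lost in 15 of 21 alternatives, among them those without any single library other than ND 3, HFD 2 and FSP 3. The FSP-against-ND call was lost in 10 of 21, among them those without ND 1, ND 2, HFD 3, FSP 1 or FSP 3.

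Of 22 integrins and other matrix receptors, 17 were tested, and 2 were lower in HFD than in ND, no larger a share than the 15.1% of all tested genes. Sdc1, an epithelial and plasma cell syndecan, fell by 1.36 in HFD against ND and Itga2, a collagen-binding integrin subunit, by 0.84 (limma adjusted p = 0.00800 and 0.0389). The Itga2 call was lost in 7 of 21 alternatives, among them without ND 1, ND 2, HFD 1, HFD 3 or HFD 4. None passed in the other comparisons. Of 28 markers of intestinal fibroblast subsets, 16 were tested. Bmp2 and Gsn, 2 of the 16, were lower in HFD than in ND (15.1% of all tested genes were) and higher in FSP than in HFD (2.83% of all). Bmp2, a bone morphogenetic protein ligand, stood at 12.9 to 20.4 FPKM in ND, 2.22 to 6.34 in HFD and 8.69 to 20.5 in FSP, and differed by −1.88 and 1.53 in HFD against ND and FSP against HFD (limma adjusted p = 0.00213 and 0.0182). Gsn, which encodes the actin-severing protein gelsolin, stood at 38.5 to 55.7, 9.19 to 26.2 and 39.5 to 83.1 FPKM, and differed by −1.56 and 1.74 (limma adjusted p = 0.00706 and 0.0157). The FSP-against-HFD call of Bmp2 was lost in 5 of 22 alternatives and that of Gsn in 3 of 22; both were lost with no filter, without FSP 4 and without FSP 1 and FSP 4, and that of Bmp2 also without HFD 3 and in a 2-group fit. The 14 other tested genes of this list did not pass in any comparison.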

How the data were processed

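Total RNA of 11 mouse intestine libraries was sequenced after TRIzol extraction and preparation with a VAHTS Universal V6 kit, per the labels' protocols. The authors deposited FPKM per gene and library. Per the submitters' processing notes the tools were fastp, HISAT2, HTSeq and R 3.2.0, on mm10. Annotation, strand setting and the tool for FPKM were not given in the sources used here, so genes that overlap others cannot be told apart by strand. Groups and replicate numbers were read from sample titles. No deposited column of per-library values was left out. The single-library tables of ND and HFD list 685 further genes, all at 0, and lack 641; those of FSP match the table of all libraries, so how FSP was tabulated and the group cannot be told apart.

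Log2(FPKM + 1) was fitted with limma 3.58.1 in R 4.3.3, with intensity trend, all 3 groups in 1 fit and no covariate, for 10296 genes with a mean of at least 1 FPKM. P-values are two-sided, with Benjamini-Hochberg adjustment over these genes and a threshold of 0.05. This scale understates changes of genes at low levels. The code was tested on simulated data. Alternatives were pseudocounts of 0.1 and 0.5, no filter, a filter of 5 FPKM, 4 scalings, 2-group fits and a replicate block. Each library was also left out in turn, as were FSP 1 and FSP 4 together. That pair was chosen as the FSP libraries highest for adipocyte markers in these same data.

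The 34 genes, the other lists and the role classes were chosen with earlier results of these data known. All 34 are named; values in every library are given for genes past the threshold and for the most abundant gene of each role class. Of the other matrix lists, up to 4 genes past the threshold with the smallest p are named, or up to 2 of the most abundant. Of the cell type and gut region lists, only part of the genes past the threshold are named. Fragment totals were recovered from 408 single-exon genes, where 88.5% to 94.9% of values at or under 10 fragments lay within 0.05 of a whole number; FPKM of other genes depend on the unstated annotation, so no count model was used. Gene coordinates and promoters are from RefSeq (promoters on GRCm38.p6), and exon positions from GENCODE vM21. Figures were drawn with matplotlib 3.10.9.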

Additional observations from a re-analysis of the deposited data

Results flagged for a closer look

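With 34 genes in the HFD and FSP groups, 68 sets of 4 values were examined for a single distant library, and chance alone flags about 1 in 20 such sets. In 2 of them a library stood apart, both times HFD 2. Mfap5, a microfibril-associated glycoprotein, stood at 1.38 FPKM in HFD 2 and at 0.410 to 0.501 FPKM in the other HFD libraries. Mfap4, another microfibril-associated protein, stood at 1.97 FPKM in HFD 2 and at 0.698 to 0.851 FPKM in the others. Both genes were under the filter of 1 FPKM; with no filter neither passed in limma.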

How the results depend on the processing

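Tgfbi remained lower in HFD than in ND in all 22 alternatives (log2 change −1.81 to −1.42, adjusted p 0.000241 to 0.00425). In FSP against HFD it passed in 21 of 22 (0.99 to 1.23, adjusted p 0.00488 to 0.0966); without FSP 1 and FSP 4 together, which leaves 2 FSP libraries, the count of matrix genes called higher went from 1 to 0. In FSP against ND it passed in 0 of 22 (−0.67 to −0.44, adjusted p 0.0800 to 0.604). No other matrix gene passed in any alternative. With each single library left out, the counts stayed at 1 lower and 0 higher in HFD against ND, at 1 higher and 0 lower in FSP against HFD, and at 0 in either direction for FSP against ND.

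Over all tested genes, counts moved more. HFD against ND had 552 higher and 1557 lower genes, and 1093 and 922 with median-ratio scaling. FSP against HFD had 291 and 94, and 180 and 167 with that scaling, 86 and 31 with no filter, 56 and 20 in a 2-group fit, and 2 and 0 without FSP 1 and FSP 4. Single libraries mattered too: FSP against HFD had 34 and 14 without FSP 4 and 52 and 16 without HFD 3. FSP against ND had 72 and 34, and 11 and 2 without ND 2.

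With 3 or 4 libraries per group, correlations cannot decide whether replicate numbers pair the libraries. Deviations from the group means in same-numbered libraries correlated at −0.094 to 0.043 (HFD and ND), 0.018 to 0.454 (FSP and HFD) and −0.099 to 0.203 (FSP and ND). The correlation was best with the own number for 0 of 3 pairs (HFD and ND), 0 of 4 (FSP and HFD) and 2 of 3 (FSP and ND). With the replicate block, the matrix gene counts were again 1 lower and 0 higher, 1 higher and 0 lower, and 0 and 0; over all genes they were 651 and 1706 (higher, lower) in HFD against ND, 240 and 97 in FSP against HFD and 54 and 23 in FSP against ND.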
